A study of Mus musculus with 8 samples.

Results

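The proteasome genes were followed in CD103+ CD11b+ cDC, the conventional dendritic cells that carry antigen from the gut to the draining lymph nodes. Members were the genes whose symbols begin with Psma, Psmb, Psmc, Psmd, Psme, Psmf or Psmg and a digit, taken from probe sets annotated to a single gene, with the brightest probe set standing for a gene that had several. This gave 49 of the 22180 genes on the array. The rule reads gene names and signal level and no difference between the groups.

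The cells were sorted from mesenteric lymph nodes of male C57BL6 mice aged 8 weeks and fed chow. One group of 4 arrays came from mice with a hBcl-2 transgene, human BCL2 driven by the CD11c promoter, and the other 4 from wild-type littermates, with pools of 2 to 3 samples on each array. CD11c is carried by other dendritic cells and by some macrophages too, so the transgene is not limited to the sorted subset. BCL2 restrains the mitochondrial route to apoptosis, and the design sets cells with added BCL2 against cells without it. Values are log2 signals per probe set, every error below is an SD over n = 4 arrays or the moderated SE of a difference, and nothing in the labels says whether pools share animals, so the spread between arrays is the only error measured.

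The proteasome degrades proteins marked with ubiquitin. Its barrel-shaped core, the 20S particle, is built of outer rings of alpha subunits (Psma genes) and inner rings of beta subunits (Psmb genes), of which a few carry the peptide-cutting sites. The 19S cap (Psmc and Psmd genes) binds, unfolds and feeds in ubiquitinated substrates. In dendritic cells, and in other cells after interferon, the catalytic subunits encoded by Psmb8, Psmb9 and Psmb10 take the places of those encoded by Psmb5, Psmb6 and Psmb7 in newly assembled cores, forming the immunoproteasome, which makes peptides suited to MHC class I. Fewer cells of a type and less RNA per cell cannot be told apart in such bulk samples.

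Arrays were alike in overall brightness, with medians over probe sets of 5.04 to 5.15. Transgenic replicate 4 was the least like its group. Its SD over probe sets was 2.00, against 2.07 to 2.11 on the other arrays. Its mean correlation with the others was 0.970, against 0.977 to 0.979 for the other 3 transgenic arrays and 0.983 to 0.985 among wild-type arrays. General cDC genes were bright in both groups, as with Ccr7 at 12.99 and 13.06 and Flt3 at 11.11 and 10.74, whereas the sorting markers Itgae (5.66 and 5.40) and Itgam (5.57 and 5.58) were dim. Of the 5 general cDC genes measured 0 passed, but Flt3 (-0.37), H2-Ab1 (-0.25) and Zbtb46 (-0.42) had negative differences at an unadjusted p below 0.05 in limma, the first 2 without overlap. Of all genes 6.6% were lower at that limit and 4.94% lay wholly below. Of genes averaging 6 or more on the log2 scale these shares were 12.7% and 9.56%, and the list was not tested against them. The summed log2 level of the 5 general cDC genes was 54.65 to 55.21 on wild-type and 52.84 to 54.97 on transgenic arrays. Of the marker lists of other cell types, 1 gene each passed in the T cell (Cd4), NK cell (Klrd1), plasmacytoid (Bst2), macrophage (Adgre1) and monocyte (Csf1r) lists, all higher in transgenic arrays. Over all genes 0.839% passed higher, and the lists were not tested against this share. In the T cell list 4 of 6 markers had a negative difference, and its sum was 32.07 to 36.03 on wild-type and 33.01 to 34.37 on transgenic arrays. Summed over the 6 monocyte markers, the log2 level was 31.46 to 34.88 on wild-type and 34.69 to 43.23 on transgenic arrays, and over the 6 plasmacytoid markers 40.48 to 43.62 and 42.12 to 47.60. Over the 7 macrophage markers it was 36.19 to 37.27 and 37.61 to 39.79, and over the 6 NK cell markers 33.42 to 42.92 and 37.15 to 46.03. Of the macrophage markers 5 had a positive difference, by far the largest Adgre1 at 1.29, and 2 a negative one. C1qa was lower without overlap (-0.17). In the plasmacytoid list 2 of 6 differences were negative. All 6 monocyte and all 6 NK cell differences were positive, 4 and 1 of them at an unadjusted p below 0.05 in limma. Among cDC1 markers 4 of 5 differences were negative and 0 passed, with Irf8 lower without overlap (-0.49). The part of these cell types in any proteasome value was not tested.

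None of the 49 proteasome genes passed limma's test over all genes at an adjusted p of 0.05. Of all genes 1.69% passed, 0.839% higher and 0.848% lower. With so small a share, finding none among 49 genes does not set the members apart. Most members stood slightly lower in transgenic cDC: 35 of 49 differences were negative, with a median log2 difference of -0.10, against 50.3% negative and a median of -0.00 over all genes. The intervals were about as narrow as those over all genes. For 46 of 49 genes the 95% interval of the difference lay within 2-fold in either direction, and for 33 it lay within 1.5-fold. Across all genes these shares were 93.7% and 70.2%. The 3 genes whose intervals reached beyond 2-fold were Psma5, Psmg1 and Psmg2.

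At an unadjusted p below 0.05 in limma there were 10 members, 8 lower and 2 higher, a share of 20.4%. Of all genes 13.2% did so (6.6% lower and 6.56% higher), and of the brighter genes, those averaging 6 or more on the log2 scale, 24.1%. This brightness limit was added after the data were seen. The 4 transgenic arrays lay wholly below the 4 wild-type arrays for 5 members, 10.2% of them, and wholly above for 0. Over all genes 4.94% lay wholly below and 4% wholly above, 8.94% in all, and of the brighter genes 9.56% lay wholly below. The brighter genes held 45 of the 49 members. Of all brighter genes 16.4% did not overlap in either direction, 12.7% were lower at an unadjusted p below 0.05 in limma and 51.4% had a negative difference. For the 45 brighter members these shares were 11.1%, 17.8% and 77.8%, and 22.2% had an unadjusted p below 0.05 in either direction. The members' shares were not tested against these.

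**Figure D1:**
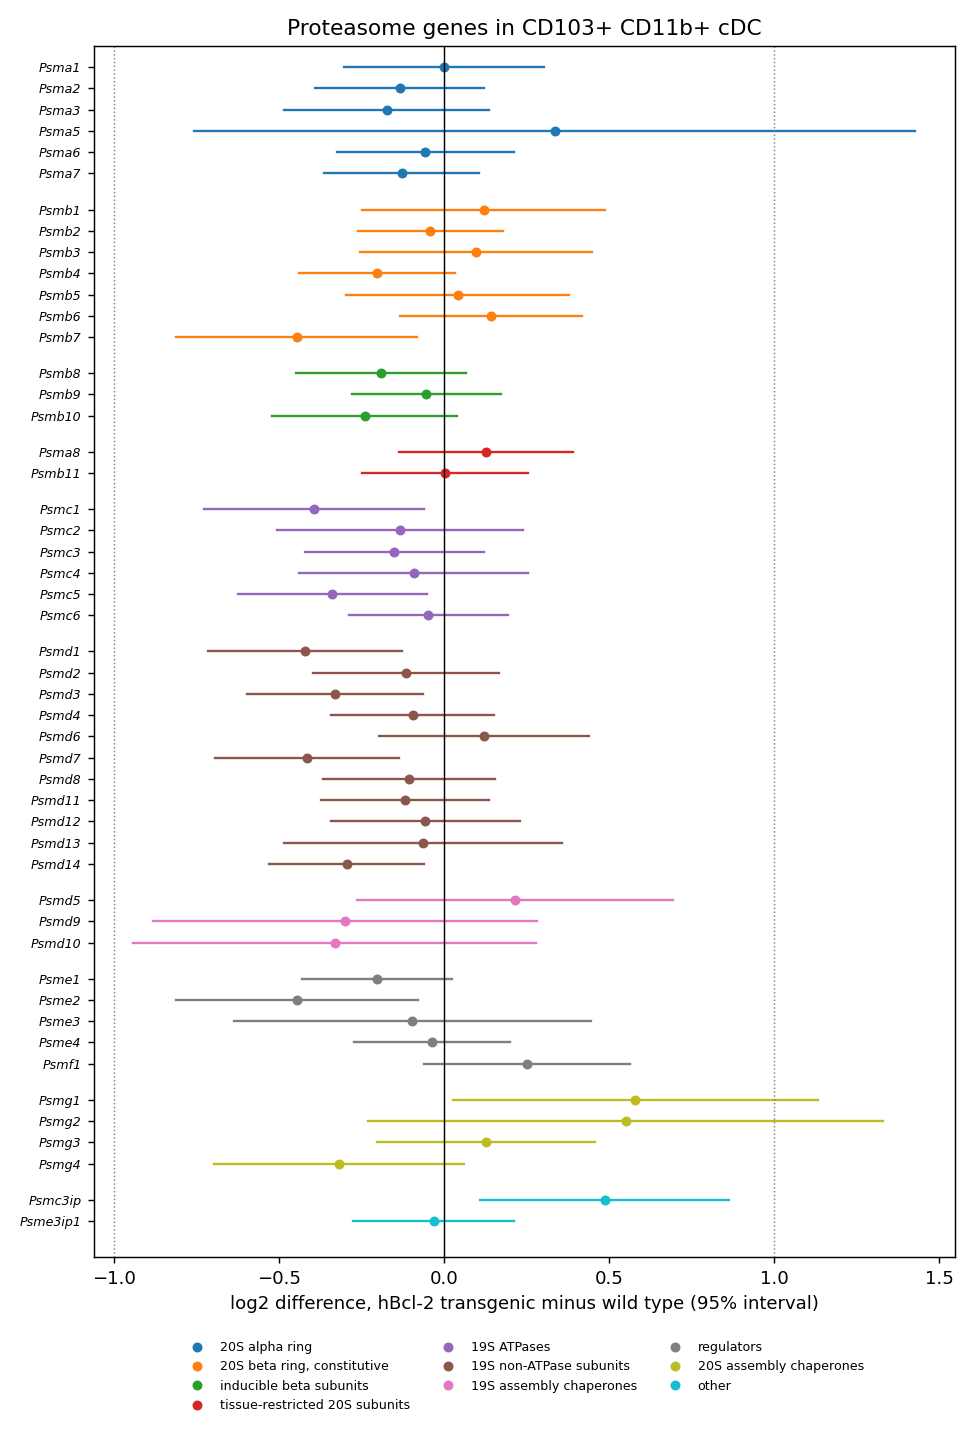
Log2 difference between hBcl-2 transgenic and wild-type arrays (horizontal axis) for each of the 49 proteasome genes, with bars for the 95% interval of limma's fit (n = 4 arrays per group), coloured by group; dotted lines mark a 2-fold difference. Most points lie between -0.45 and 0.25, and only Psma5, Psmg1 and Psmg2 have intervals that cross a dotted line.

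The 19S cap made up 17 of the 49 members. It held 6 of the 8 members that were lower at an unadjusted p below 0.05 in limma, and 16 of the 35 negative differences. Of the cap subunits 35.3% were lower at that limit, against 6.6% of all genes and 12.7% of the brighter genes. Transgenic arrays lay wholly below wild-type arrays for 23.5%, against 9.56% of the brighter genes. Negative differences made up 94.1%, against 51.4% of the brighter genes. The cap was not tested against these shares. Of its 17 measured subunits, 1 had a positive difference and 0 passed after adjustment. The median was -0.12. Psmd7, a scaffold subunit that pairs with the deubiquitinase encoded by Psmd14, had the smallest adjusted p of all members. It was at 9.79, 9.71, 9.56 and 9.83 on wild-type and at 9.35, 9.19, 9.57 and 9.12 on transgenic arrays. The groups met only at wild-type replicate 3 and transgenic replicate 3. The difference was -0.42 (SE 0.13, 95% interval -0.70 to -0.14), a level 1.33-fold lower, and did not pass (limma adjusted p = 0.150). Its partner Psmd14, which removes ubiquitin chains as substrates enter, gave 9.08, 9.03, 8.87 and 9.05 against 8.66, 8.62, 8.69 and 8.87. Transgenic replicate 4 was the only transgenic array to reach the wild-type values, and the difference was -0.30 (SE 0.11; limma adjusted p = 0.234).

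Psmd1, the large scaffold of the base onto which ubiquitin receptors dock, was at 9.38, 8.93, 8.93 and 9.29 in wild type and 8.67, 8.76, 8.61 and 8.82 in transgenic arrays. Every transgenic array lay below every wild-type array. The difference was -0.42 (SE 0.13; limma adjusted p = 0.167). A much dimmer probe set that Psmd1 shares with Armc9 went the other way without overlap, and was not counted. It gave 5.25 ± 0.14 and 5.68 ± 0.25 (SD, n = 4), a difference of 0.44. Psmd3, a lid subunit, was wholly lower on transgenic arrays. It was at 8.16, 7.93, 7.87 and 8.22 against 7.78, 7.58, 7.83 and 7.67 (difference -0.33, SE 0.12; limma adjusted p = 0.244). Other subunits of the lid and base were closer to 0. Psmd2, the second large scaffold, was at -0.12 (SE 0.13), Psmd4, a ubiquitin receptor, at -0.10 (SE 0.11), Psmd11 at -0.12 (SE 0.11), Psmd8 at -0.11 (SE 0.12), Psmd12 at -0.06 (SE 0.13) and Psmd13 at -0.07 (SE 0.19). Psmd6 was the sole cap subunit with a positive difference, 0.12 (SE 0.14).

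The ATPases of the base, which unfold substrates and thread them into the core, all had negative differences, with a median over 6 genes of -0.14. Psmc1 was at 9.84, 9.90, 9.81 and 9.94 in wild type and 9.69, 9.50, 9.70 and 9.04 in transgenic arrays, without overlap. Transgenic replicate 4 was by far the lowest. Its difference of -0.40 (SE 0.15; limma adjusted p = 0.269) became -0.25 without that array. Psmc5 was at 10.36, 10.16, 10.31 and 10.20 against 10.10, 9.99, 9.99 and 9.59, again without overlap (difference -0.34, SE 0.13; limma adjusted p = 0.268). Psmc2, Psmc3, Psmc4 and Psmc6 ranged from -0.15 to -0.05, with overlapping groups. Psmc2 had a further, dimmer probe set, on which wild-type arrays were at 9.41, 9.28, 9.32 and 9.47 and transgenic arrays at 9.13, 9.18, 9.17 and 9.15, a difference of -0.21 with no overlap, against -0.13 and overlapping groups on the brighter set.

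**Figure D2:**
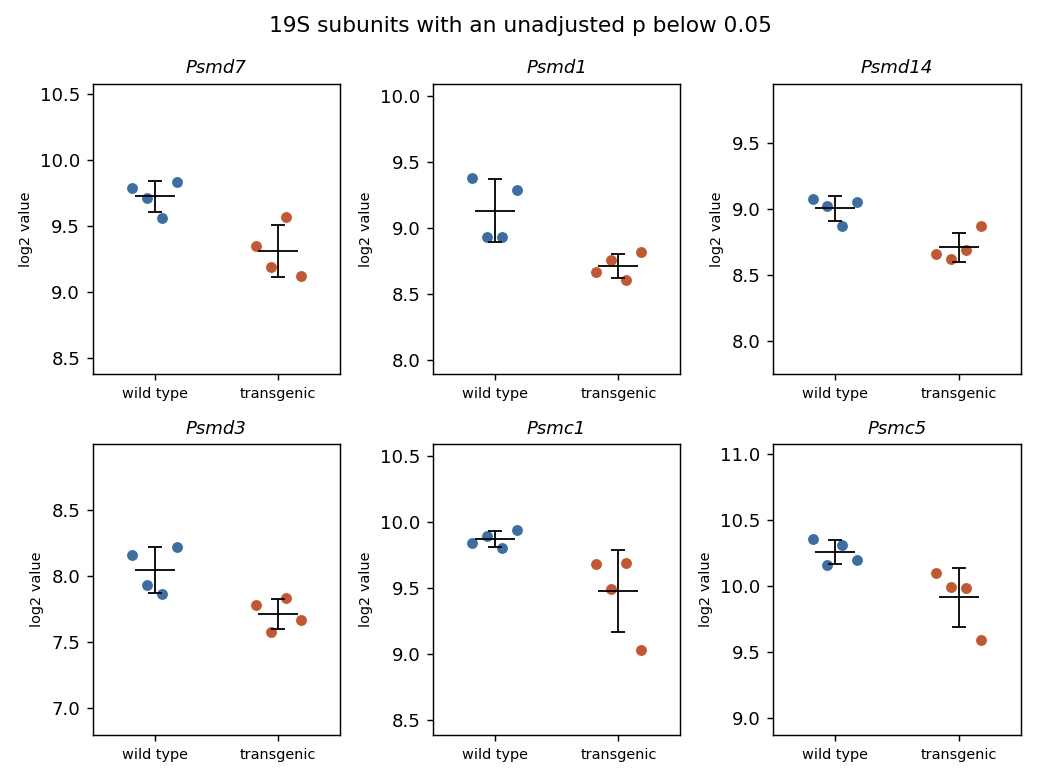
Log2 values of the 19S genes with an unadjusted p below 0.05 in limma; each point is an array (n = 4 per group), long lines are means and bars the SD, and every vertical axis spans the same range. In Psmd1, Psmd3, Psmc1 and Psmc5 all transgenic arrays lie below all wild-type arrays, while Psmd7 and Psmd14 overlap at 1 array.

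The alpha and constitutive beta subunits of the 20S core differed little. Of 13 measured, 8 were lower and 5 higher, with a median of -0.04, and 0 passed. Among the alpha genes, which form the gated outer rings, Psma1 was at 9.55 ± 0.25 and 9.54 ± 0.10, Psma7 at 11.20 ± 0.14 and 11.07 ± 0.04 and Psma3 at 10.62 ± 0.14 and 10.45 ± 0.24 (SD, n = 4). Psma2 and Psma6 had differences of -0.14 (SE 0.12) and -0.06 (SE 0.12). Psma5 was dim and erratic, from 3.93 to 6.53 over transgenic arrays, so its difference of 0.34 (SE 0.49) has little precision. Psma4 had no probe set of its own. The brighter of the probe sets it shares with AY074887 gave 8.99 ± 0.25 and 8.54 ± 0.25 (SD, n = 4), and it was not counted.

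Among the structural beta genes, Psmb4 was at 10.71, 10.45, 10.41 and 10.62 in wild type and 10.38, 10.38, 10.32 and 10.29 in transgenic arrays. These did not overlap, but the difference was only -0.20 (SE 0.11; limma adjusted p = 0.464). Psmb1 and Psmb2 were at 0.12 (SE 0.17) and -0.04 (SE 0.10), and the dim Psmb3 at 0.10 (SE 0.16).

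The catalytic subunits were measured as 3 pairs of a constitutive and an inducible gene. Psmb5, whose product cuts after hydrophobic residues, was at 10.54, 10.18, 9.95 and 10.24 in wild type and 10.37, 10.34, 9.96 and 10.41 in transgenic arrays, a difference of 0.04 (SE 0.15). Its inducible counterpart Psmb8 was at 10.63, 10.63, 10.59 and 10.49 against 10.46, 10.36, 10.59 and 10.17. Transgenic replicate 3 was the only transgenic array above the lowest wild-type array, and the difference was -0.19 (SE 0.12; limma adjusted p = 0.555). Psmb6, the caspase-like site, was at 7.92 ± 0.11 and 8.06 ± 0.19, and its counterpart Psmb9 at 12.24 ± 0.10 and 12.19 ± 0.06 (SD, n = 4), with differences of 0.14 (SE 0.12) and -0.05 (SE 0.10). Among the inducible genes Psmb9 had the narrowest interval, -0.28 to 0.17.

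Psmb7, the trypsin-like site, had the lowest difference of all members. It was at 10.08, 10.26, 9.97 and 10.39 in wild type and 9.83, 10.03, 9.76 and 9.30 in transgenic arrays, overlapping through transgenic replicate 2. The difference was -0.45 (SE 0.16, 95% interval -0.81 to -0.08; limma adjusted p = 0.248). Psmb10, which replaces it in the immunoproteasome, was at 10.56, 10.43, 10.41 and 10.50 against 10.33, 10.23, 10.45 and 9.93, a difference of -0.24 (SE 0.13; limma adjusted p = 0.464). Transgenic replicate 4 was the lowest of the 8 arrays for Psmb7, Psmb8 and Psmb10.

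The balance of inducible over constitutive genes was then compared within arrays. The log2 value of Psmb8 minus Psmb5 changed by -0.23 between wild-type and transgenic arrays (exact two-sided permutation test over 70 assignments, p = 0.314, adjusted p = 0.314 over the 3 pairs). Psmb9 minus Psmb6 changed by -0.20 and Psmb10 minus Psmb7 by 0.21 (exact permutation p = 0.171 and adjusted p = 0.257 for each). The groups overlapped for all 3 pairs, and the pairs did not run the same way. The smallest p this test allows is 0.0286. Single arrays moved these values: Psmb8 minus Psmb5 was -0.11 without transgenic replicate 4, -0.40 without transgenic replicate 3 and -0.14 without wild-type replicate 3, and Psmb9 minus Psmb6 was -0.12 without wild-type replicate 1. Probe sets differ in brightness for reasons other than RNA level, so the levels of partners cannot be set against each other.

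**Figure D3:**
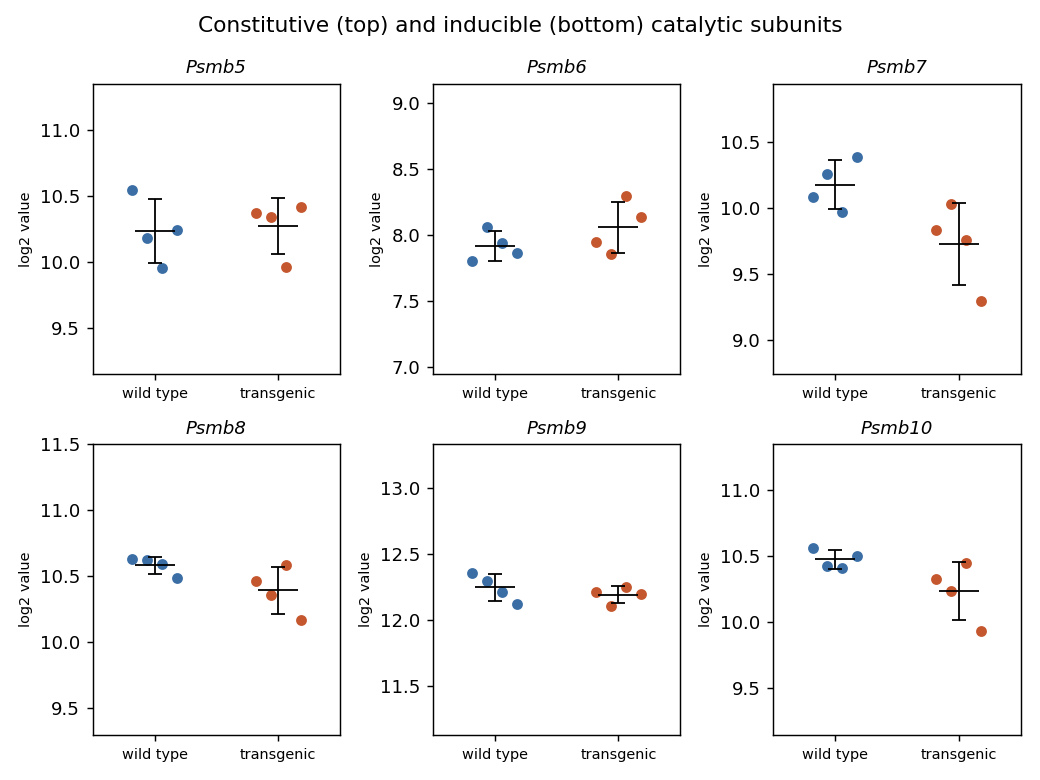
Log2 values of the constitutive catalytic genes Psmb5, Psmb6 and Psmb7 (top) and their inducible counterparts Psmb8, Psmb9 and Psmb10 (bottom), with each array as a point, the mean as a long line and the SD as bars (n = 4 per group); all vertical axes span the same range. The groups overlap in every panel, and transgenic replicate 4, the rightmost point of its group, is the lowest array for Psmb7, Psmb8 and Psmb10.

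Interferon and the NRF factors reach these genes through their promoters, so the promoters of Psmb8, Psmb9 and Psmb5, and of the interferon-inducible regulator Psme1, are shown, 250 bases before to 50 after the start, from RefSeq on GRCm38.p6. Psmb8 lies at chr17:34197945-34198244 on the plus strand, Psme1 at chr14:55578244-55578543 on the plus strand, Psmb9 at chr17:34187281-34187580 on the minus strand and Psmb5, the constitutive partner of Psmb8, at chr14:54617946-54618245 on the minus strand. Capitals mark a motif match on either strand.
Psmb8: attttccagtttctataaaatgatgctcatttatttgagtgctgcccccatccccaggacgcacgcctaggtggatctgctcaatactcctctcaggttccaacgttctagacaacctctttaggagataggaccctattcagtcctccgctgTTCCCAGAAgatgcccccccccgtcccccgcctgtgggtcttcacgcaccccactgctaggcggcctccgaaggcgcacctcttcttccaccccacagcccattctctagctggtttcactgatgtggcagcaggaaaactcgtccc
Psme1: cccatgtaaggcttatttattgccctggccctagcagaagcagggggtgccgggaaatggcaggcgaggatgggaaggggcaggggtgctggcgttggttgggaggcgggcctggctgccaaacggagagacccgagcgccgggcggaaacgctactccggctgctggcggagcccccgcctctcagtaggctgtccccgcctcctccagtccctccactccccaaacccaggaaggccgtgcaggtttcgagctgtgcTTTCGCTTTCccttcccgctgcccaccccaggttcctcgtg
Psmb9: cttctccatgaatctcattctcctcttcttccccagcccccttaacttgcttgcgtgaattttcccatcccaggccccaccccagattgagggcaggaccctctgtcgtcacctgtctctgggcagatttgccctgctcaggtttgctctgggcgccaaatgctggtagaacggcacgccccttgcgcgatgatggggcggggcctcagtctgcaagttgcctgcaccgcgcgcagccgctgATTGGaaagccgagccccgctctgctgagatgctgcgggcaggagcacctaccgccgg
Psmb5: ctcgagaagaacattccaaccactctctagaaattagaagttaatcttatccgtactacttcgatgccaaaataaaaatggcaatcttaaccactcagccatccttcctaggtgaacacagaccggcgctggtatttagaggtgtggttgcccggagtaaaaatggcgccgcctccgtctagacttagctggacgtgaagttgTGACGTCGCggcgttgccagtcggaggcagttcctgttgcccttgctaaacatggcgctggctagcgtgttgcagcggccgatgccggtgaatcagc

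In these windows Psmb8 held a gamma-activated site (TTCNNNGAA), Psme1 the core of an interferon-stimulated response element (GAAA, any 2 bases, then GAAA, read on the opposite strand), Psmb9 a CCAAT box on the opposite strand and Psmb5 the core of an antioxidant response element (TGACNNNGC), the site of NRF1 and NRF2. RefSeq promoters were found for 41 of the 49 members, 45 windows in all. The gamma-activated site was in 6.67% of these windows and in 8.30% of all 32851 promoters of the same length. The interferon-stimulated core was in 11.1% and 3.44%, found in Psmb3, Psmd4, Psmd9, Psme1 and Psmg4. The antioxidant core was in 13.3% and 12.4%, and CCAAT in 35.6% and 37.4%. None of the motifs overlapped another in the printed windows. The 5 members with the interferon-stimulated core had log2 differences from -0.32 to 0.10, within the range of the other members. A match describes letters and is no evidence of binding.

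The tissue-restricted subunit genes were dim. Psma8, which belongs to the testis, was at 4.16 ± 0.06 and 4.28 ± 0.19, and Psmb11, which belongs to the thymic cortex, at 4.49 ± 0.09 and 4.49 ± 0.15 (SD, n = 4). Both lay below the median over probe sets of every array, but well above the lowest value on any array, 2.11.

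Regulators that open or restrain the core had a median of -0.10 over 5 genes, 4 of them negative, and 0 passed. Psme1 and Psme2 encode the interferon-inducible PA28 alpha and beta caps that speed peptide release. Psme1 was at 11.42, 11.35, 11.36 and 11.17 against 11.06, 11.15, 11.20 and 11.07, where only wild-type replicate 4 fell among the transgenic values (difference -0.20, SE 0.10; limma adjusted p = 0.445). Psme2 was at 8.08, 7.35, 7.55 and 7.63 against 7.31, 7.42, 7.07 and 7.01 (difference -0.45, SE 0.17; limma adjusted p = 0.250). A probe set that Psme2 shares with other genes gave 7.29 ± 0.10 and 6.97 ± 0.26 (SD, n = 4). Psme3, the nuclear PA28 gamma, was at -0.10 (SE 0.24), with transgenic replicate 4 at 6.41 and every other array at 7.19 or above. Without that array its difference was 0.18, so 1 array sets its sign among the 4 negative regulators. Psme4, which encodes the PA200 cap, was at -0.04 (SE 0.11), and Psmf1, the inhibitor PI31, at 0.25 (SE 0.14; limma adjusted p = 0.505).

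Assembly chaperones were the most variable group. Psmg1 and Psmg2 encode a pair of proteins that start the alpha ring. Psmg1 was at 6.92, 6.92, 6.15 and 6.47 in wild type and 7.57, 7.52, 7.17 and 6.52 in transgenic arrays, the highest difference of any member at 0.58 (SE 0.25; limma adjusted p = 0.352). Transgenic replicate 4 alone fell inside the wild-type range, and without it the difference was 0.80 (limma adjusted p = 0.0915). Psmg2 was at 6.92, 6.13, 5.77 and 7.18 against 6.16, 7.41, 7.16 and 7.47 (0.55, SE 0.35), and its dimmer probe set differed by 0.12. The other pair of alpha ring chaperones went opposite ways, with Psmg3 at 0.13 (SE 0.15) and Psmg4 at -0.32 (SE 0.17). For the chaperones of the 19S base, Psmd9 was at -0.30 (SE 0.26), Psmd5 at 0.21 (SE 0.22) and Psmd10, also known as gankyrin, at -0.33 (SE 0.28). The Psmd10 value came from transgenic replicate 4, at 7.75 beside 8.85 to 9.23 on the other 7 arrays, and the group's median moved from -0.30 to -0.00 without that array.

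The name rule also took in genes that are not subunits. Psmc3ip, a meiotic recombination factor also called Hop2, was at 6.15 ± 0.33 and 6.64 ± 0.19 (SD, n = 4), a difference of 0.49 (SE 0.17; limma adjusted p = 0.219), and Psme3ip1 was at -0.03 (SE 0.11).

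By array, the median deviation of the 49 genes from their wild-type means was -0.08, -0.09, -0.07 and -0.10 on transgenic replicates 1 to 4, and 0.09, -0.02, -0.10 and 0.05 on wild-type replicates 1 to 4. Wild-type replicate 3 was thus as low as the transgenic arrays. Transgenic replicate 4 was the lowest of the 8 arrays for 17 members and the highest for 7. Wild-type replicate 1 was the highest for 17 and wild-type replicate 4 for 12. The median over the members was -0.07 without transgenic replicate 4 and -0.14 without wild-type replicate 3. These were the ends of the range when 1 array was left out. After quantile normalization was applied again the median was -0.04, with 31 of the 49 differences negative.

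**Figure D4:**
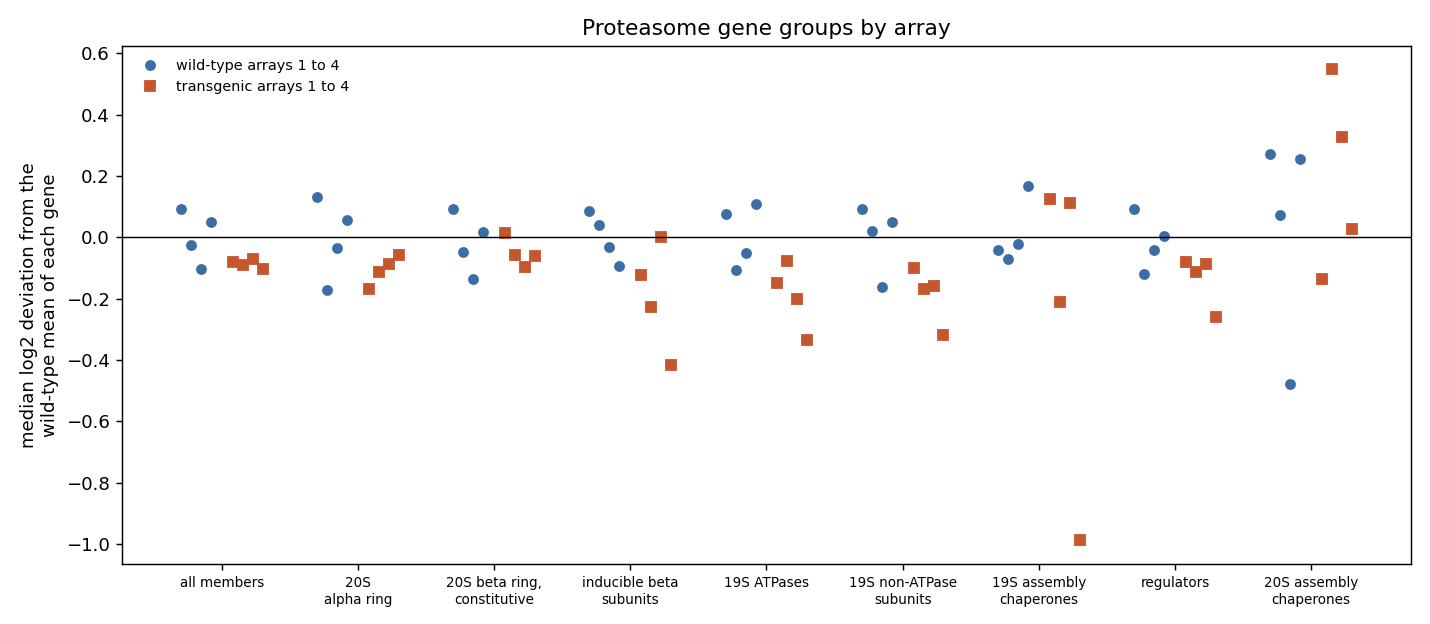
Median log2 deviation of each group of proteasome genes from the genes' wild-type means (vertical axis) on each of the 8 arrays, plotted from replicate 1 at the left to replicate 4 at the right within a group; circles are wild-type and squares transgenic arrays. The genotypes overlap in each group plotted; transgenic replicate 4 is the lowest array for the inducible beta subunits (-0.42), the 19S ATPases (-0.34), the 19S non-ATPase subunits (-0.32), the 19S assembly chaperones (-0.99) and the regulators (-0.26).

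Genes that act with or upstream of the proteasome were taken as 5 lists with 46 measured genes. Of these 0 rose and 2 fell, Irf1 and Tyk2, both in the list on interferon control of the inducible subunits. That list had 11 measured genes, of which 9 did not pass, and a median of -0.17. Over all genes 0.839% passed higher and 0.848% lower, and no list was tested against these shares. Irf1 encodes a transcription factor that drives Psmb8, Psmb9 and Psme genes after interferon. It was at 9.85, 9.79, 9.96 and 9.84 in wild type and 9.32, 8.96, 9.44 and 8.99 in transgenic arrays. The groups were well apart, and the log2 level of Irf1 fell by 0.68 (SE 0.13; limma adjusted p = 0.0330). Tyk2, a kinase of the type I interferon receptor, was at 10.66, 10.60, 10.66 and 10.60 against 10.22, 9.60, 10.08 and 9.79 and fell by 0.71 (SE 0.14; limma adjusted p = 0.0380).

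Both calls sat close to the threshold. Irf1 passed in 10 of 19 alternatives and Tyk2 in 9. Without wild-type replicates 1 to 4 in turn, the limma adjusted p of Irf1 was 0.1004, 0.0875, 0.0998 and 0.0799, and without transgenic replicates 1, 2 and 4 it was 0.0529, 0.0785 and 0.0538. For Tyk2 it was 0.111, 0.103, 0.108 and 0.0874 without wild-type replicates 1 to 4 and 0.0735, 0.0583 and 0.0654 without transgenic replicates 2, 3 and 4. The log2 difference stayed between -0.77 and -0.61 for Irf1 and between -0.81 and -0.60 for Tyk2 in all 19.

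Also in that list, and picked after their values were seen, Stat2 was at 8.83, 9.12, 8.87 and 8.80 against 8.41, 8.06, 8.55 and 7.21 (difference -0.85, SE 0.25; limma adjusted p = 0.141). Nlrc5, the activator of MHC class I genes, was at 9.26, 9.34, 9.73 and 9.55 against 9.14, 8.53, 9.18 and 8.83 (-0.55, SE 0.17; limma adjusted p = 0.150). Neither group pair overlapped, and neither gene passed. Of the 11 genes 4 lay wholly lower on transgenic arrays and 0 wholly higher. Wholly lower were 4.94% of all genes and 9.56% of the brighter genes, and the list was not tested against these. Jak1, Jak2, Irf9, Ifnar1 and Ifngr2 overlapped between groups, with differences from -0.24 to -0.04. The receptor genes Ifngr1 and Ifnar2 had the highest positive test statistics of the list, at 0.34 (SE 0.24) and 0.28 (SE 0.15).

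Of 10 measured genes that control subunit expression through NRF1, NRF2 and NF-Y, 0 passed. Nfe2l1, which encodes NRF1, the factor that raises subunit genes when proteasome activity is short, was at -0.20 (SE 0.13). Nfe2l2, which encodes the oxidative stress factor NRF2, was at 10.82, 10.35, 10.35 and 10.25 against 11.28, 10.83, 11.04 and 10.75, a difference of 0.53 (SE 0.16; limma adjusted p = 0.145). Its groups met only through wild-type replicate 1. Mafg, a small MAF partner of both factors, was at 6.61, 6.57, 6.63 and 6.57 against 6.10, 6.12, 6.14 and 6.36 without overlap, a difference of -0.42 (SE 0.10; limma adjusted p = 0.0794). It passed without transgenic replicate 4 (limma adjusted p = 0.0403) and with array weights (limma adjusted p = 0.0335). Nfyb was at 0.36 (SE 0.25).

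**Figure D5:**
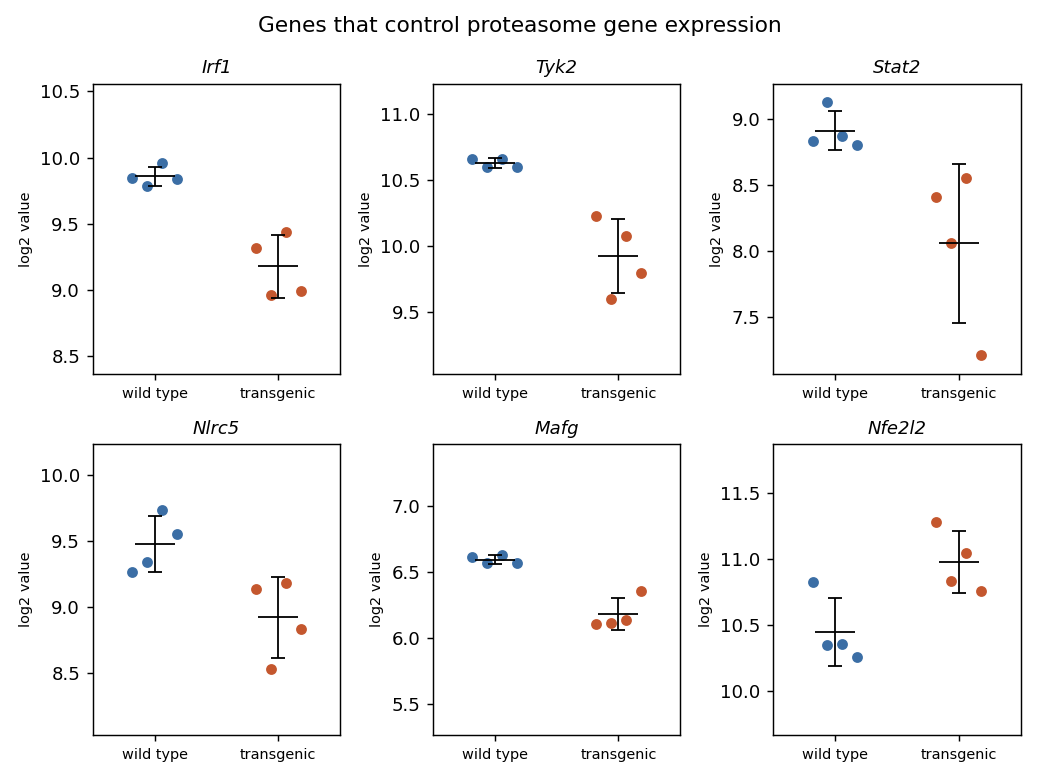
Log2 values of genes that control proteasome genes, with each array as a point, the mean as a long line and the SD as bars (n = 4 per group); all vertical axes span the same range. Irf1 and Tyk2 passed limma's test over all genes and are lower on every transgenic array, whereas Stat2, Nlrc5, Mafg and Nfe2l2 did not pass.

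None of the 9 measured proteasome-associated genes passed, and their median was -0.04. Pomp, the maturation factor that joins the rings of the core, was at 10.45, 10.33, 10.27 and 10.05 against 9.89, 9.63, 10.11 and 9.99 (difference -0.37, SE 0.14; limma adjusted p = 0.242). Uchl5, a deubiquitinase of the cap, was at 0.23 (SE 0.11), Akirin2, which brings proteasomes into the nucleus, at 0.16 (SE 0.11), and the ligase gene Ube3c at -0.23 (SE 0.16). Ubiquitin supply and substrate delivery had 0 of 9 past the test and a median of -0.18. In it Vcp, the segregase that extracts ubiquitinated proteins, was at -0.32 (SE 0.15), Rad23b, a shuttle, at -0.29 (SE 0.18), Ubqln2, another shuttle, at 0.28 (SE 0.12; limma adjusted p = 0.352) and Ufd1 at -0.02 (SE 0.14). Of the 7 cytosolic peptidases that trim proteasome products 0 passed, with Npepps at -0.26 (SE 0.11), Tpp2 at -0.15 (SE 0.13), Lap3 at 0.30 (SE 0.27) and Prep at 0.09 (SE 0.12). Their median was -0.05.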

How the data were processed

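The deposited values are log2 signals per probe set. The authors used RMA and Partek, as the submitters' processing notes list them without versions. RMA is meant to make the distributions of arrays alike, so most of a shift of all genes would not be seen. The deposited distributions were close but not identical, and quantile normalization applied again moved values. Filters and build: not given in the sources used here. Per the labels' protocols, 2.5 ng of RNA was amplified.

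Of 34390 probe sets, 23521 name 1 gene in the platform's annotation and only these were used. The mouse gene table of GRCm38.p6 changed 0 symbols. Transgenic and wild-type arrays were compared with lmFit and eBayes in limma 3.58.1 (R 4.3.3), p-values being adjusted by Benjamini-Hochberg across the 22180 genes without a signal filter. Arrays have no read depth, and 4 arrays per group set the precision.

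The members, lists and tests were chosen with earlier results of these data known. All members could be named, and of each pathway list those past the threshold, the 2 highest and the 2 lowest by statistic. The list on interferon control was the exception and was named in full. Of the marker lists, those past the threshold and a few others were named. Of the 56 listed genes, 10 were not analysed here. The 4 printed promoters were chosen after values were seen. Alternatives were other variance moderation, filters, normalization, probe set rules, array weights, a replicate block and leaving out each array (statmod 1.5.0 for weights). Figures used matplotlib 3.10.9 in Python 3.11.15.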

Additional observations from a re-analysis of the deposited data

Results flagged for a closer look

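In 138 groups of 4 arrays, 2 for each of 69 genes (the members and the pathway genes named by rule), 7 had an array far from the others by Dixon's test, and chance flags about 1 in 20. Psma6 was at 10.42 on wild-type replicate 2 and 10.67 to 10.72 on the other wild-type arrays. Psmd13 was at 6.91 on wild-type replicate 3, against 7.59 to 7.68. Tpp2 was at 9.11 on wild-type replicate 4, against 8.81 to 8.85. Psmb5 was at 9.96 on transgenic replicate 3, against 10.34 to 10.42. Psmd8 was at 9.98 on transgenic replicate 4, against 10.29 to 10.32. Psme4 was at 8.31 on that array, against 8.07 to 8.10, and Mafg at 6.36, against 6.10 to 6.14.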

How the results depend on the processing

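The count of 0 members past the threshold held in all 19 alternatives, and the smallest adjusted p of any member was 0.0915 in limma, for Psmg1 without transgenic replicate 4. The sign of the difference was kept throughout by 33 members, 25 negative and 8 positive, and changed at least once for 16. The median of each group of members moved by less than the spread between arrays, except that of the regulators, which was -0.10 and ranged from -0.18 (without transgenic replicate 1) to -0.078 when an array was left out. The count over all genes was 374, against 35 without moderation and 106 to 380 when an array was left out. It was 187 with the replicate number as a block. Same-numbered arrays did not deviate together (correlations -0.03, -0.03, 0.08 and -0.02), so the numbers are not taken as pairs, and Irf1 and Tyk2 did not pass in that fit (limma adjusted p = 0.0645 and 0.0722) or without moderation (0.1199 and 0.148). Tyk2 also missed the threshold with arrays centred on their medians (limma adjusted p = 0.0520). The causes were not tested. The precision of 4 arrays and the dim signal of Psma5, Psmb3, Psma8 and Psmb11 limit what can be seen.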
